A study of Homo sapiens with 16 samples.

Results

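Regions that carried both H3K4me1 and H3K27me3 in BE2C neuroblastoma cells given the control siRNA siCtrl were followed through 16 CUT&Tag libraries. CUT&Tag uses an antibody to bring a transposase to a chromatin mark, so that the DNA beside the mark is cut and tagged for sequencing. A region was selected on called islands, which are broad stretches of enrichment: every base pair had to lie in an island of both H3K4me1 siCtrl libraries and of both H3K27me3 siCtrl libraries. Runs of such base pairs of at least 1 kb on the 22 autosomes were kept, outside chromosome 2 from 16000000 to 17000000, the interval around MYCN. This gave 1045 regions with a summed length of 3.30 Mb, of 31636 pieces (175 Mb) called in any siCtrl library.

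BE2C is an established human neuroblastoma line with amplified MYCN. All cells were treated for 72 h, with siCtrl, with the KDM6B siRNA siKDM6B33, with 0.1% DMSO, or with 2.5 µM GSK-J4, an inhibitor of the KDM6 demethylases. Each condition was profiled for both marks in 2 replicate libraries, so that 4 libraries chose the regions and 12 did not. The labels name a single KDM6B siRNA for these libraries. They measure chromatin and no transcript, so the level of KDM6B cannot be read from them.

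H3K4me1 is a methyl mark of enhancers and of the flanks of promoters. H3K27me3 is deposited by the Polycomb complex PRC2 over silent genes, and KDM6B is one of the enzymes that remove it. Chromatin that carries H3K4 methylation together with H3K27me3 is called bivalent and is best known from the CpG-rich promoters of developmental regulators in stem cells. Of the H3K4 methyl marks, these libraries profile H3K4me1 and not H3K4me3. Lists called from many cells cannot tell apart both marks on the same nucleosomes, on the 2 alleles, or in different cells.

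The 250 bases before 3 starts at regions are printed to show how widely their CpG content ranged, from GRCh37, 5′ to 3′ on the strand of the gene, with every CpG in capitals. SAMD11, a sterile alpha motif protein, had the longest region with both marks in all 4 conditions. HOXD12, a homeobox gene of the posterior body plan, was added after its values were seen. SEMA6B, a transmembrane axon guidance cue, was called for H3K27me3 alone after knockdown. No annotated exon overlapped these windows.
SAMD11 (chr1:859053-859302, plus strand): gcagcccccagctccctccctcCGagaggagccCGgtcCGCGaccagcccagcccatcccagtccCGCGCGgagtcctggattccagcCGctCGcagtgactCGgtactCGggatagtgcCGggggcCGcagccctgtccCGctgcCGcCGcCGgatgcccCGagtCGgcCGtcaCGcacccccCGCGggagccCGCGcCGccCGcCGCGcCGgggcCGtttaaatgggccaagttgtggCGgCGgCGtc
HOXD12 (chr2:176964273-176964522, plus strand): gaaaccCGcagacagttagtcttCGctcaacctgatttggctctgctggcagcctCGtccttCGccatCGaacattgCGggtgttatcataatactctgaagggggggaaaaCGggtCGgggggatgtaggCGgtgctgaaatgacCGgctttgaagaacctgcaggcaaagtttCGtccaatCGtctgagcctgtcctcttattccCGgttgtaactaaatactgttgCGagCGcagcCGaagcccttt
SEMA6B (chr19:4581789-4582038, minus strand): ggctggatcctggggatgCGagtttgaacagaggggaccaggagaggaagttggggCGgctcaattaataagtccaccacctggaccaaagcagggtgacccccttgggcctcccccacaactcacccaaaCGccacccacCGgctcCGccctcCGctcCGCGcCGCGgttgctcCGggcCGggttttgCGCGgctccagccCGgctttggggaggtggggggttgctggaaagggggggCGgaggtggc
The SAMD11 window held 34 CpG at 76.0% GC, HOXD12 16 at 53.2% and SEMA6B 16 at 67.6%, so that only SAMD11 of the 3 held more CpG than the typical coding gene. The median over the canonical starts of 18631 coding genes was 19 CpG (quartiles 7 and 27), and over 635 genes with a region at a start it was 23 (16 and 31).

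The regions were short stretches where 2 kinds of island met. Their median width was 2600 bp (quartiles 1800 and 3800), and 729 reached 2 kb, 147 reached 5 kb and 16 reached 10 kb. The regions held 8.05% of the length called for H3K27me3 and 3.96% of that called for H3K4me1 in siCtrl cells. At the limit itself, 67 runs measured exactly 1000 bp and were kept, and 59 measured 800 bp, the next step of the 200-bp window, and were not. In 410 regions (39.2%) the H3K4me1 island lay inside the H3K27me3 island, in 285 (27.3%) the reverse held, in 342 (32.7%) the 2 islands crossed at an edge, and in 8 they had the same edges. The 926 H3K27me3 islands of siCtrl replicate 1 that held a region had a median width of 4800 bp, against 3800 bp for all islands of that list, and 89 of them held 2 or more regions.

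Both siCtrl replicates were used by the choice, so their coverage of 100% is no result. When the regions were chosen by 1 siCtrl replicate alone (1268 and 1259 regions), H3K4me1 islands of the replicate not used covered 86.9% and 86.6% of their length. H3K27me3 islands of the unused replicate covered 88.6% and 89.7%. These are the levels at which a repeat of the same condition returned the regions.

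Transcription starts lay at most of the regions. A basic GENCODE start of a coding or long noncoding transcript was within 1 kb of 676 regions, or 64.7% (95% Wilson interval 61.7 to 67.5%, counting error only). The same share lay between 26.4 and 27.6% (Wilson; 5253 of 19463) for pieces with H3K4me1 only and was 35.0% (34.0 to 36.0%) for 8658 pieces with H3K27me3 only, although those pieces were wider (median 3000 and 3200 bp). A coding start was near 57.1% of the regions, and 79 regions had a noncoding start only. No start within 5 kb was found for 25.6% of the regions, against 62.1% and 51.8% of the pieces with 1 mark. Of the coding genes, 638 of 18877 (3.38%) had a region at a start.

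The regions differed from both kinds of piece in base composition. The central 1 kb had a median GC content of 64.2% (quartiles 58.8 and 68.7%), against 50.9% (44.2 and 57.6%) with H3K4me1 only, 51.0% (46.0 and 57.9%) with H3K27me3 only, and 48.2% (43.0 and 55.5%) in windows 50 kb to the right of the regions. The ratio of observed to expected CpG was 0.598 in the regions and 0.241 and 0.300 in the pieces with 1 mark. A window of at least 50% GC and a CpG ratio of at least 0.6, here called CpG island-like, was found in 49.4% of the regions (46.4 to 52.4%), 9.10% of H3K4me1-only pieces, 18.3% of H3K27me3-only pieces and 2.90% of the windows moved by 50 kb.

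The contrast was also read with the pieces split by a start within 1 kb. Among regions with a start 64.5% (60.8 to 68.0%) were CpG island-like, against 30.5% and 44.1% of the H3K4me1-only and H3K27me3-only pieces with a start. Among the 369 regions without a start the share was 21.7% (17.8 to 26.2%), against 1.20% and 4.46%. The Wilson intervals of the regions and of the pieces did not overlap in any of these comparisons, but they treat neighbouring regions as independent, which they are not. The part of starts, of piece width and of the distance from the start to the window was not tested.

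**Figure D1:**
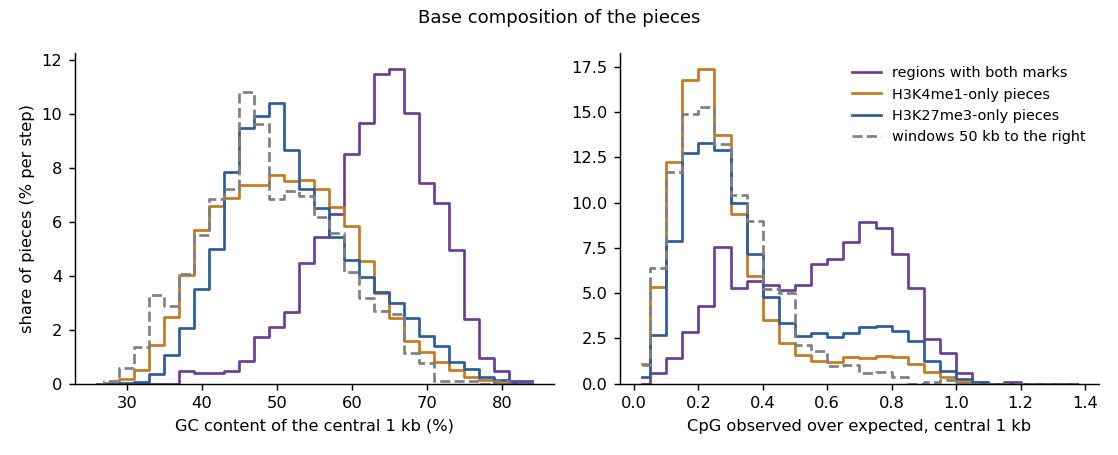
Share of pieces by GC content (left, %) and by the ratio of observed to expected CpG (right) in the central 1 kb, for the 1045 regions with both marks, the pieces with 1 mark in siCtrl cells and windows 50 kb to the right of the regions. The regions peak at a GC content above 60% and at a CpG ratio near 0.75, where the other curves are low.

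Coverage was next read by distance from the starts. The starts were taken at regions, so that high siCtrl coverage at the start itself follows from the choice and is a description. For 542 canonical coding starts at regions, H3K4me1 islands of the siCtrl libraries covered 97.8% and 96.1% of the starts and H3K27me3 islands 96.9% and 95.8%. At 5 kb before the start H3K4me1 fell to 21.8% and 20.8%, and H3K27me3 to 29.2% and 28.6%. At 2 kb after the start H3K4me1 covered 63.1% and 62.7%, and H3K27me3 69.7% and 69.6%, more than the 45.6% and 44.6%, and 52.6% and 50.0%, at 2 kb before it. The profile was thus shifted into the gene for both marks. This was not particular to the regions. At starts of H3K4me1-only pieces H3K4me1 covered 38.8% and 37.8% at 2 kb before and 54.3% and 51.5% at 2 kb after. At starts of H3K27me3-only pieces H3K27me3 covered 48.6% and 51.3%, and 67.3% and 68.0%.

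**Figure D2:**
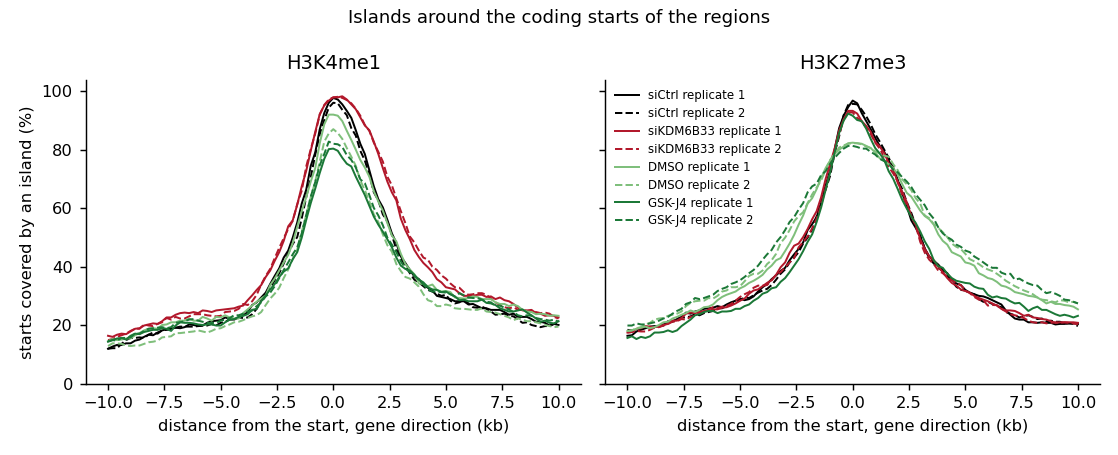
Percent of 542 canonical coding starts at the regions covered by an island, against the distance from the start in the direction of the gene (kb), for H3K4me1 (left) and H3K27me3 (right), 1 line per library. The siKDM6B33 lines for H3K4me1 lie above the siCtrl lines at 2 kb after the start (78.6% and 79.3% against 63.1% and 62.7%). For H3K27me3 the GSK-J4 replicate 1 line lies nearer to the knockdown experiment than the other 3 compound libraries, at these starts only. At starts of H3K4me1-only pieces its H3K27me3 islands covered 42.0%, against 3.57% and 3.88% with siKDM6B33 and 20.6% to 23.7% in the other 3.

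The genes at the regions were described through 16 lists, beside the 3.38% of all coding genes. Homeobox genes outside the HOX clusters, transcription factors that pattern the embryo and the nervous system, had a region at 32 of 92 (34.8%). WNT, BMP and hedgehog ligands and their inhibitors had one at 13 of 48 (27.1%), potassium and calcium channels at 14 of 73 (19.2%) and HOX genes at 6 of 39 (15.4%). GATA and basic helix-loop-helix factors had 7 of 50 (14.0%), axon guidance genes 9 of 68 (13.2%), SOX and FOX factors 6 of 53 (11.3%), retinoic acid genes 2 of 19 and T-box genes 1 of 16. One of 7 CDK inhibitor genes had a region, CDKN1A. In most of these lists more genes carried H3K27me3 only: 37 of the homeobox genes, 20 of the HOX genes, 19 of the signalling genes and 35 of the channels, against 2235 of all coding genes. The lists were read as counts with no test.

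The other 6 lists held no region. Their pieces with 1 mark are read beside 3929 of 18877 coding genes with H3K4me1 only and 2235 with H3K27me3 only. Of 12 genes of the adrenergic neuroblastoma identity (among them HAND2, GATA3, ISL1, TH and DBH), 9 had a piece with H3K4me1 only, 0 had H3K27me3 only and 0 a region. Several of these genes also stand in the homeobox, GATA and helix-loop-helix, and T-box lists. Of 10 mesenchymal neuroblastoma genes 5 had H3K27me3 only and 3 H3K4me1 only, and of 9 genes of other lineages 3 and 1. E2F targets (34), PRC2 and H3K27 demethylase genes (12) and ribosomal protein genes (52) had 0 regions, and H3K27me3 only at 0, 0 and 1 of them. At the 3.38% of all coding genes, lists of 9 to 52 genes are too small to set a count of 0 apart from the background.

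**Figure D3:**
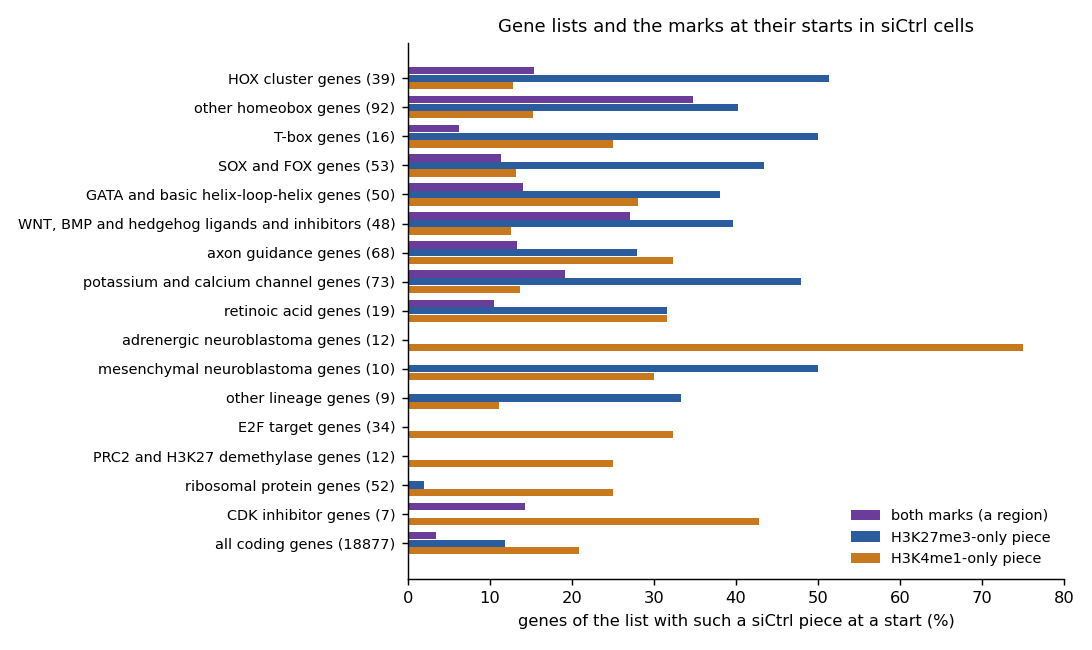
Percent of the annotated genes of each list (their number in brackets) with a region of both marks, an H3K27me3-only piece or an H3K4me1-only piece at a start in siCtrl cells. Homeobox genes reach 34.8% for both marks, against 3.38% of all coding genes. Of the 12 adrenergic genes, 9 have an H3K4me1-only piece and 3 have no piece.

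Among homeobox genes, LHX1, LMX1B and PAX2 had the most region length. The summit of a region is the highest pileup of tags at its narrow peaks over the genome background of the library, and a region without a narrow peak has the value 0. Being a maximum, it can be higher in a longer region. LHX1 (chr17:35288401-35300600, 12200 bp) and LMX1B (chr9:129371601-129382000, 10400 bp), LIM homeobox factors of kidney, limb and neurons, and PAX2 (chr10:102497001-102506600, 9600 bp), a paired box factor of kidney and eye, had both marks in all 4 conditions. The H3K27me3 summit at LHX1 was 1392 and 1272 with siCtrl and 1003 and 813 with siKDM6B33, and in the compound experiment the DMSO libraries had 1679 and 1330 and the GSK-J4 libraries 750 and 970. At LMX1B it was 2404 and 1945, 1058 and 1134, 2082 and 1626, and 888 and 1078 in the same order. At both genes the 2 treated libraries of each experiment lay below their 2 controls, as did the median over all regions. The treated libraries also had the higher genome backgrounds for H3K27me3, by which summits were divided. The part of depth was not tested. The H3K4me1 summit at LHX1 was 244 and 200 with siCtrl and 514 and 561 with siKDM6B33, while the DMSO libraries had 457 and 372 and the GSK-J4 libraries 256 and 268. At LHX1 it thus lay above the controls after knockdown and below them with the compound. At LMX1B (299 and 414 in the DMSO libraries, 274 and 322 in the GSK-J4 libraries) and PAX2 (334 and 352, and 292 and 358) the groups of the compound experiment overlapped.

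The 6 HOX genes with a region were HOXA11, HOXC10, HOXC11, HOXD11, HOXD12 and HOXD13, which lie at the posterior end of their clusters. HOXA11 (chr7:27222401-27226000) was covered over 100% by both marks in all 12 libraries that the choice did not use. HOXD12 (chr2:176961801-176965000) was covered over 100% in 11 of them and over 93.8% by H3K4me1 in GSK-J4 replicate 2. HOXC11 (chr12:54365001-54368800) was less even, with H3K4me1 coverage of 94.7% in both DMSO libraries but 26.3% and 89.5% in those of GSK-J4. None of these DMSO and GSK-J4 libraries had an H3K4me1 narrow peak there. The H3K4me1 summit at HOXD12 was 77.6 and 82.5 with siCtrl and 234 and 323 with siKDM6B33.

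Signalling genes were led by WNT ligands. WNT7B (chr22:46365001-46369200, with a second region, 6800 bp in all) was covered over 100% by both marks in all 12 libraries. WNT11 (chr11:75916001-75922600) had 100% H3K4me1 coverage with siKDM6B33 and DMSO, and 87.9% and 48.5% with GSK-J4. No H3K4me1 narrow peak was called there in the DMSO or GSK-J4 libraries, so this difference in islands had no counterpart in narrow peaks. WNT10A (chr2:219745001-219750400) kept 100% H3K4me1 throughout and had H3K27me3 coverage of 74.1% and 77.8% with siKDM6B33 and 100% with DMSO and GSK-J4. It had no H3K27me3 narrow peak in the siCtrl or siKDM6B33 libraries. Of 14 regions at such genes, 14 had both marks with siKDM6B33, 13 with DMSO and 13 with GSK-J4, beside 547, 431 and 407 of the 597 regions at all coding genes.

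Channels and guidance genes had regions of both stable and uneven coverage. CACNA1G (chr17:48636401-48642600), a T-type calcium channel, and KCNN1 (chr19:18058601-18064600), a calcium-activated potassium channel, had both marks in all 4 conditions. Of the 14 channel regions, 12 had both marks with siKDM6B33, 10 with DMSO and 10 with GSK-J4, near the shares of 85.1%, 69.0% and 67.5% over all regions. SEMA5B, a semaphorin with 14800 bp of regions, and EFNA3, an ephrin ligand (chr1:155050801-155058200), also had both marks throughout. EFNA2 (chr19:1283601-1289400) had H3K27me3 coverage of 86.2% and 48.3% with siKDM6B33, so that its replicates parted. No H3K27me3 narrow peak was called there with siCtrl or siKDM6B33.

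The retinoic acid and cell cycle lists gave 3 genes. CYP26A1 (chr10:94831601-94834800), which degrades retinoic acid, had an H3K4me1 summit of 0 in both siCtrl libraries and of 215 and 238 with siKDM6B33, beside H3K27me3 summits of 759 and 773 and of 538 and 586. CRABP2 (chr1:156673201-156676600), a retinoic acid carrier, had H3K4me1 summits of 466 and 636 with siCtrl and of 505 and 523 with siKDM6B33, which overlapped. CDKN1A (chr6:36646201-36648600), the p21 inhibitor of cyclin-dependent kinases, was covered over 100% by both marks in all 12 libraries. Its H3K27me3 summits were 127 and 99.7 with siCtrl, below the medians of 228 and 249 over all regions. With siKDM6B33 they were 149 and 227, beside medians of 186 and 189. In these libraries 1 tag is worth 25.3 and 24.9, and 18.6 and 18.9.

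To see whether the regions kept both marks in cells given the KDM6B siRNA, their coverage was read in the siKDM6B33 libraries. H3K4me1 islands covered 93.2% and 93.4% of the region length (93.3 ± 0.159%, SD, n = 2), and H3K27me3 islands 94.4% and 93.9% (94.2 ± 0.339%, SD, n = 2). With the regions chosen by 1 siCtrl replicate, the knockdown libraries covered 89.2% to 90.2% of the length for H3K4me1, above the 86.9% and 86.6% of the unused siCtrl replicate, and 88.6% to 90.0% for H3K27me3, beside 88.6% and 89.7%. With all lists of a mark at the same covered length, which also left 520 regions, the siKDM6B33 coverages were 86.0% for H3K4me1 and 82.2% for H3K27me3, and the part of list length was not tested. The siCtrl libraries chose the regions, so these values are a description with no test.

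A region was called for a mark where islands of both replicates covered at least 50% of it. H3K4me1 was called at 962 of 1045 regions (92.1%) with siKDM6B33, against 66.7% of all 20282 pieces called for H3K4me1 in siCtrl cells. H3K27me3 was called at 958 (91.7%), against 89.2% of 9143 H3K27me3 pieces. Both marks were called at 889 regions (85.1%), H3K4me1 alone at 38, H3K27me3 alone at 43 and neither at 3, and at 72 the replicates differed. When all lists of a mark were cut to the same covered length from the highest island score down, the regions numbered 520 and the share with both marks was 56.9%, under the 77.7% with DMSO and 70.0% with GSK-J4, so that the order of the conditions turned.

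**Figure D4:**
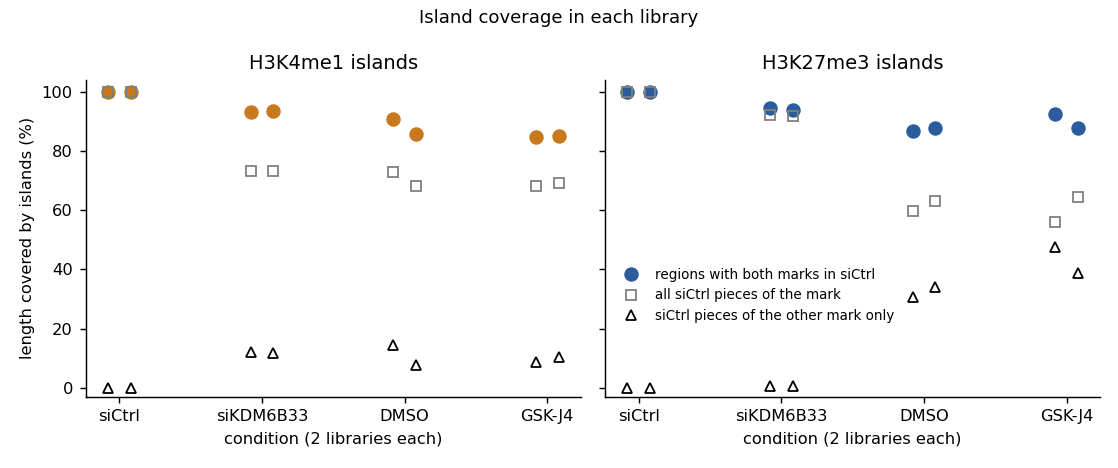
Percent of length covered by H3K4me1 islands (left) and H3K27me3 islands (right) in each of 2 libraries per condition, for the regions, for all siCtrl pieces of the same mark and for siCtrl pieces with the other mark only. The regions stay above 84% in every library, while H3K27me3 covers 0.743% and 0.671% of the H3K4me1-only pieces with siKDM6B33 and 30.6% to 47.5% in the compound experiment.

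The H3K4me1 summits of the regions were higher after knockdown. The median over the regions was 99.8 and 106 times the genome background with siCtrl and 187 and 181 with siKDM6B33, so that the libraries did not overlap. Over all H3K4me1 pieces the median was 122 and 130 with siCtrl and 112 and 114 with siKDM6B33, the opposite order. With regions chosen by siCtrl replicate 1 alone, the unused replicate had 106 and the knockdown libraries 182 and 171, and with replicate 2 alone the values were 99.8, and 178 and 171. The rise was larger at starts: regions with a start went from 99.8 and 106 to 215 and 209, and regions without one from 99.8 and 106 to 122 and 124. Over the genome background, the H3K27me3 summits went the other way in the regions, from 228 and 249 to 186 and 189. With regions chosen by 1 siCtrl replicate alone this fall was smaller, from 199 or 202 in the unused replicate to 167 and 170, while over all H3K27me3 pieces they were 101 and 99.7 with siCtrl and 111 and 113 with siKDM6B33. The knockdown libraries were the deeper ones, with genome backgrounds of 0.107 and 0.105 tags per base against 0.0902 and 0.0849 for H3K4me1, and 0.0539 and 0.0529 against 0.0395 and 0.0401 for H3K27me3. Before division by the background, the median H3K27me3 summit of the regions was 9 and 10 tags with siCtrl and 10 and 10 with siKDM6B33. In the same order, that of H3K4me1 was 9 and 9, and 20 and 19 tags. The part of depth in these levels was not tested.

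The same could be seen from the positions of the narrow peaks. An H3K4me1 summit lay in the 800 bp around the start at 46.9% and 47.2% of 542 starts with siCtrl and at 76.2% and 74.0% with siKDM6B33. For H3K27me3 the shares were 52.0% and 52.0%, and 52.6% and 54.1%. The H3K4me1 shares also rose at starts of pieces with H3K4me1 only (67.5% and 67.8% to 81.0% and 81.5%) and with H3K27me3 only (19.3% and 19.4% to 53.6% and 54.0%), so this gain at starts was not particular to the regions.

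The regions are described here by their call with siKDM6B33. The siCtrl calls were fixed by the choice, and a repeat of siCtrl also missed part of the length, so that a missing call is not shown to be a loss after knockdown. The median width was 2800 bp for the 889 regions with both marks, 1400 bp for the 38 with H3K4me1 alone, 2000 bp for the 43 with H3K27me3 alone and 1000 bp for the 3 with neither. A start was within 1 kb of 617 (69.4%), 19 (50.0%), 9 (20.9%) and 0 of them. CpG island-like windows were found in 53.8%, 34.2% and 4.65% of the first 3 classes. Both marks were called at 91.3% of the regions with a start and 73.7% of those without, and by width the share was 75.0% from 1 to 2 kb, 87.1% from 2 to 5 kb and 98.6% from 5 kb up. How far short regions and those without a start are missed in any library was not tested.

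Among the longest regions with a coding start and H3K4me1 alone after knockdown were those at ALDH16A1, of the aldehyde dehydrogenase family, and PIH1D1 (chr19:49954601-49956800), GRM2 (chr3:51740401-51742400), a metabotropic glutamate receptor, and MARCHF9 (chr12:58148801-58150600), a ubiquitin ligase of membranes. At these 3 regions H3K27me3 coverage was 0% in both knockdown libraries and H3K4me1 coverage was 100%. Their H3K27me3 summits were low already with siCtrl, at 152 and 99.7 for ALDH16A1 and 0 in both libraries for GRM2 and MARCHF9. Knockdown replicate 2 had an H3K27me3 narrow peak at ALDH16A1 (94.5) and at GRM2 (56.7). In the compound libraries MARCHF9 had 100% H3K27me3 coverage in all 4.

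H3K27me3 alone was called at SEMA6B (chr19:4580401-4584800), the neuropeptide gene QRFP (chr9:133772201-133775600), BTBD17 (chr17:72357201-72359000) and the metalloprotease gene ADAM33 (chr20:3661401-3662800). H3K4me1 coverage with siKDM6B33 was 0% and 36.4% at SEMA6B and 0% in both libraries at the other 3, and H3K27me3 coverage was 100% at all 4. SEMA6B had H3K27me3 summits of 405 and 374 with siCtrl and 204 and 170 with siKDM6B33, and its H3K4me1 summits of 77.6 and 58.9 and of 46.8 and 85.6 overlapped. QRFP had no H3K4me1 narrow peak in either siCtrl library, and BTBD17 and ADAM33 had none of H3K27me3 in any library. H3K4me1 summits were 111 and 165 with siCtrl and 0 and 38.1 with siKDM6B33 at BTBD17, and 66.5 and 82.5, and 0 in both, at ADAM33. At QRFP H3K4me1 coverage was also 0% in both DMSO libraries, and it was 94.1% and 100% with GSK-J4, with no H3K4me1 narrow peak in any of them.

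The longest regions of all kept both marks everywhere. SAMD11 (chr1:845401-869200, 23800 bp) was covered over 95.8% or more by both marks in all 12 libraries not used by the choice. On chromosome 16, SOX8 (chr16:1026401-1040800), a factor of neural crest and glia, SSTR5 (chr16:1117601-1134600), a somatostatin receptor, and C1QTNF8 (chr16:1143401-1159800), a secreted C1q-related protein, lay close together. SSTR5 had H3K4me1 coverage of 96.5% and 69.4% with siKDM6B33 and of 90.6% to 100% in the compound libraries, and C1QTNF8 had 100% for both marks throughout. On chromosome 12, NXPH4 (chr12:57606601-57621600), a neurexin ligand, and NDUFA4L2 (chr12:57625401-57639200), a mitochondrial protein induced in low oxygen, were neighbours. At C1QTNF8 the H3K27me3 summits were 1189 and 1272 with siCtrl and 1058 and 1078 with siKDM6B33, and the H3K4me1 summits were 388 and 518, and 655 and 609. Other long regions had lower H3K4me1 summits after knockdown. SSTR5 had 310 and 247 with siCtrl and 122 and 66.6 with siKDM6B33, SEMA5B 809 and 554, and 496 and 466, and WNT10A 277 and 200, and 168 and 114.

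**Figure D5:**
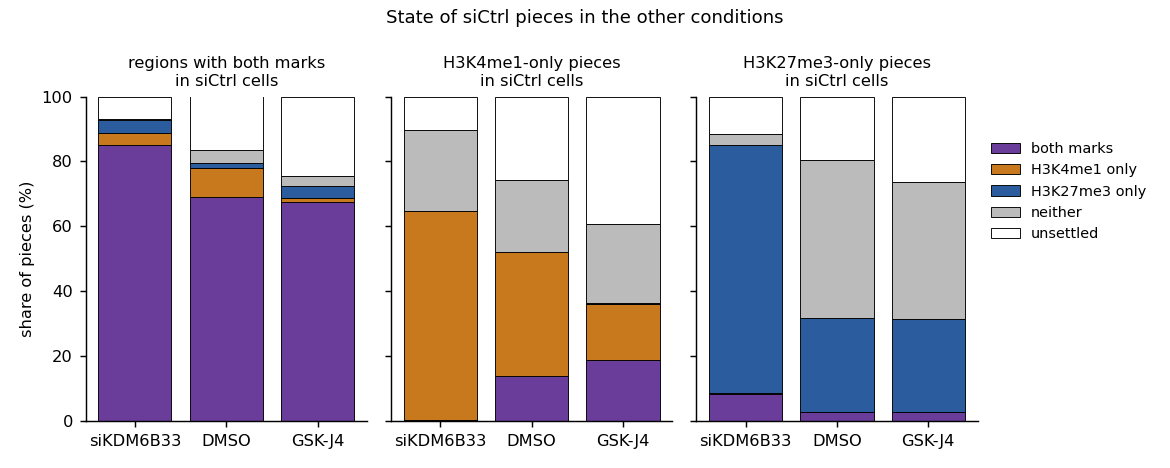
Share of pieces (%) in each state in siKDM6B33, DMSO and GSK-J4 cells, for the regions with both marks and for pieces with 1 mark in siCtrl cells. Both marks are called at 85.1%, 69.0% and 67.5% of the regions, and unsettled pieces, where replicates differ, make up 24.6% with GSK-J4.

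The compound experiment gave values that the choice of regions did not use. Its H3K27me3 lists stand apart from those of the knockdown experiment: in DMSO and GSK-J4 cells H3K27me3 islands covered 30.6% to 47.5% of the pieces that had H3K4me1 only in siCtrl cells, against 0.743% and 0.671% with siKDM6B33. Under the rule used for siCtrl, 53.0% of the H3K27me3 length of DMSO cells and 61.9% of that of GSK-J4 cells also carried H3K4me1. The number of pieces with both marks was 2576 (7.64 Mb) with siKDM6B33, 5091 (24.8 Mb) in DMSO cells and 6887 (29.0 Mb) in GSK-J4 cells. They held 83.7%, 73.4% and 71.2% of the length of the siCtrl regions, and the siCtrl regions made up 36.2%, 9.75% and 8.10% of their own length. Whether this overlap moved the calls below was not tested.

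In DMSO cells both marks were called at 721 regions (69.0%) and in GSK-J4 cells at 705 (67.5%), of which 635 were the same regions, and 599 (57.3%) had both marks in all 4 conditions. H3K4me1 was called at 83.3% of the regions with DMSO and 78.7% with GSK-J4, against 61.0% and 58.5% of all H3K4me1 pieces. H3K27me3 was called at 76.4% and 77.6%, against 38.8% and 37.1% of all H3K27me3 pieces. H3K4me1 alone was called at 94 regions with DMSO and 12 with GSK-J4, and H3K27me3 alone at 16 and 41, while 172 and 257 were unsettled. The shares differed by width here too: of the 316 regions of 1 to 2 kb, 144 (45.6%) had both marks with DMSO and 139 with GSK-J4, and of those from 5 kb up 96.6% and 93.9%. With 1 replicate per call, both marks were called at 73.7% and 75.9% of the regions with DMSO, and leaving out 1 GSK-J4 library gave 72.9% (replicate 1 left out) and 80.7% (replicate 2 left out).

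To compare GSK-J4 with DMSO, 1 value per library was taken over all regions. H3K4me1 islands covered 90.6% and 85.6% of the region length in the DMSO libraries, and 84.7% and 85.1% in the GSK-J4 libraries (88.1 ± 3.57% and 84.9 ± 0.270%, SD, n = 2 each). The difference was -3.19 percentage points (exact two-sided permutation p = 0.333, the smallest that 2 libraries against 2 allow), less than the SD of the DMSO libraries. It was -0.664 points without DMSO replicate 1 and -5.72 without DMSO replicate 2. In regions from 5 kb up it was -1.52 points, in regions with a start -4.08 and in those without one -1.25. H3K4me1 coverage of both GSK-J4 libraries was lower than of both DMSO libraries at 95 regions (9.09%), against 14.4% of all H3K4me1 pieces, and higher at 60 (5.74%), against 12.0%. Both shares were below those of all pieces.

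H3K27me3 islands covered 86.6% and 87.7% in the DMSO libraries, and 92.3% and 87.6% in the GSK-J4 libraries (87.2 ± 0.763% and 89.9 ± 3.32%, SD, n = 2 each). The groups overlapped, with a difference of 2.78 points (exact two-sided permutation p = 0.667). It was 0.430 points when GSK-J4 replicate 1 was left out and 5.13 when replicate 2 was, and 4.95 as an unweighted mean over regions, and it turned to -0.710 in regions from 5 kb up and to -1.04 with lists of equal covered length. H3K27me3 coverage of both GSK-J4 libraries was higher than of both DMSO libraries at 36 regions (3.44%), against 4.04% of all H3K27me3 pieces, and lower at 25 (2.39%), against 8.07%. GSK-J4 replicate 1 covered 964 regions over at least 50%, and the other 3 compound libraries 830, 841 and 834.

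Over the genome background, the median summit of all regions was lower with GSK-J4 for both marks, but not in regions without a start. The median H3K27me3 summit of the regions was 168 and 177 in the DMSO libraries, and 138 and 135 in the GSK-J4 libraries, a difference of -36.2 (exact two-sided permutation p = 0.333). For H3K4me1 it was 123 and 124, and 91.3 and 107, a difference of -24.3 (exact two-sided permutation p = 0.333). On this scale the groups overlapped in neither mark, and this held for H3K27me3 without either GSK-J4 replicate (-37.9 and -34.5). In tags, before division by the background, they overlapped in both marks. The median H3K27me3 summit was 5 and 6 tags in the DMSO libraries, and 7 and 5 in the GSK-J4 libraries. For H3K4me1 it was 7 and 6, and 5 and 6. In the 369 regions without a start the order over the background was reversed in both marks. There the H3K4me1 summits were 105 and 103 in the DMSO libraries, and 110 and 107 in the GSK-J4 libraries, and those of H3K27me3 were 0 and 88.7, and 118 and 108. Over all H3K4me1 pieces the median also lay lower with GSK-J4, at 91.3 and 89.4 against 105 and 103, and over all H3K27me3 pieces it was 0 in the 4 libraries. Both differences became 0 with narrow peaks of −log10 q of at least 5, that of H3K27me3 was -75.7 in regions from 5 kb up, and that of H3K4me1 was -15.2 from 2 kb up. Among the regions with a narrow peak in all 4 H3K27me3 libraries of the comparison the difference was -111. The GSK-J4 libraries were the deeper ones for H3K27me3, with genome backgrounds of 0.0507 and 0.0371 tags per base against 0.0298 and 0.0338, so that 1 tag was worth 19.7 and 26.9 against 33.6 and 29.6. For H3K4me1 the backgrounds were 0.0569 and 0.0483 in the DMSO libraries, and 0.0547 and 0.0559 in the GSK-J4 libraries. The part of depth in these differences was not tested.

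Some regions parted fully between DMSO and GSK-J4. H3K4me1 coverage went from 100% in both DMSO libraries to 0% in both GSK-J4 libraries at GNAS (chr20:57426001-57431000), which encodes the stimulatory G protein subunit, NRN1 (chr6:6007001-6009400), neuritin, and RTN4RL2 (chr11:57226201-57228400), a Nogo receptor homologue, while H3K27me3 stayed at 100% in all 4 libraries. At GNAS the H3K4me1 summits were 0 in both DMSO libraries and in 1 GSK-J4 library, and 71.5 in the other, so the change in islands had no counterpart in narrow peaks. The same was true of NRN1 (0 and 82.8 in the DMSO libraries, 0 and 89.4 in the GSK-J4 libraries) and RTN4RL2 (105 and 0, and 91.3 and 0). H3K4me1 went from 0% to 100% in both libraries at SCUBE1 (chr22:43738201-43739400), and from 0% to 92.3% and 100% at SVIL (chr10:30023401-30026000), which encodes an actin-binding protein. No narrow peak of H3K4me1 was called at SCUBE1 in any of the 4 compound libraries, and at SVIL the DMSO libraries had summits of 70.3 and 145 and the GSK-J4 libraries 54.8 and 89.4.

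H3K27me3 coverage went from 0% in both DMSO libraries to 100% in both GSK-J4 libraries at HSD11B2 (chr16:67462001-67465600), the enzyme that inactivates cortisol, SEMA7A (chr15:74723201-74726200), a semaphorin, and PLPP4 (chr10:122215601-122217600), a lipid phosphatase. At HSD11B2 a narrow peak of H3K27me3 stood in both DMSO libraries (summits 101 and 118) and in 1 GSK-J4 library (118 and 0). At SEMA7A the only such peak among the compound libraries was in DMSO replicate 2 (118), while PLPP4 had 134 and 0, and 118 and 162. H3K27me3 coverage went from 100% to 0% in both libraries at CAMSAP3 (chr19:7660201-7663400), which binds microtubule minus ends, from 100% to 66.7% and 0% at ZNF423 (chr16:49891601-49893400), a zinc finger factor of retinoic acid and BMP signalling, and from 100% to 71.4% and 0% at HAPLN3 (chr15:89437401-89440200), a hyaluronan link protein. The H3K27me3 summits at CAMSAP3 were 168 and 207 in the DMSO libraries, and 79.0 and 0 in the GSK-J4 libraries, and at HAPLN3 168 and 0, and 138 and 0. At ZNF423 the only peak among these 4 libraries was in GSK-J4 replicate 2 (80.8), against the change in islands. These genes were picked for the size of the difference, so their values carry no test.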

How the data were processed

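CUT&Tag of H3K4me1 and H3K27me3 was analysed in 16 libraries of BE2C cells, in 8 groups of 2 replicates taken from the sample titles. The authors aligned reads to hg19 with BWA 0.7.12, removed duplicates with Picard 1.65 and filtered with SAMtools 1.3.1, per the labels and methods. The authors called islands per library with SICER 1.1 (200-bp window, 600-bp gap), and the deposited score of an island, a sum over its windows, was used only to rank islands within a list. The authors called narrow peaks with MACS2 at a q threshold of 0.05 (2.1.1 in the labels, another version in the methods), and the deposited lists give fold enrichment (a ratio), −log10 p and −log10 q. The deposited score column of narrow peaks was not used. Spike-in factors and reads per region were not used here, so the voom and limma fit of the methods could not be made.

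Islands were read as 200-bp bins in Python 3.11.15 with NumPy 2.4.6, SciPy 1.17.1, pysam 0.24.0 and matplotlib 3.10.9. Starts came from GENCODE 44 mapped to GRCh37. The whole-number summit of a narrow peak was solved from its fold and −log10 p, which succeeded for 99.99% or more of every library's peaks, and divided by the genome background of the library (0.0298 to 0.107 tags per base). The scripts recovered what artificial input held. An exact permutation test, two-sided, was run over 1 value per library. With 2 libraries a group, p cannot go below 0.333 and measures only the spread between these libraries. Intervals are Wilson at 95%.

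Pieces with 1 mark were called in both siCtrl libraries of it and in neither of the other. Named genes had a basic coding start within 1 kb: the 6 longest regions, the 4 longest per state after knockdown, the 5 longest with both marks in all conditions, the 3 that parted most per mark and direction between DMSO and GSK-J4, and the 3 with most region length per list. The longest regions without a start within 5 kb and some genes that the rule named are not reported here. The regions and gene lists were chosen with earlier results of these data known. Alternatives are given in the closing section.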

Additional observations from a re-analysis of the deposited data

How the results depend on the processing

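Of 124 values under alternatives, 44 of 48 differences between GSK-J4 and DMSO kept their direction, and none could pass a threshold with 2 libraries a group. The H3K27me3 coverage difference turned to -0.710 points with regions from 5 kb and to -1.04 with lists of equal covered length, and both median summit differences became 0 with narrow peaks of −log10 q of at least 5, since most regions then held none. The other 76 values have no test, and 56 of them moved: shares and coverages by more than their spread, and numbers of regions, which have no spread, by more than a fixed ratio. From 5 kb up there were 147 regions, with a start at 76.9%, both marks at 98.6% with siKDM6B33, 96.6% with DMSO and 93.9% with GSK-J4, and siKDM6B33 coverage of 97.1% for H3K27me3 and 96.1% for H3K4me1. From 2 kb up the shares with both marks were 89.4%, 79.1% and 77.6% and the coverages 95.4% and 93.9%. With equal covered length there were 520 regions, shares of 56.9% (siKDM6B33) and 77.7% (DMSO) and coverages of 82.2% and 86.0%. With islands above the median score of their list there were 430 regions, starts at 68.1%, shares of 82.3% and 63.7% and H3K4me1 coverage of 90.1%. Joining islands within 2 kb gave starts at 68.6% and H3K4me1 coverage of 92.9%. Starts were at 48.0% by coding gene ends alone, 59.2% inside the region and 74.4% within 5 kb. Calls at 80% of the length gave 75.3%, 58.8% and 55.0%, and any overlap 71.8% (DMSO) and 70.3% (GSK-J4). Unweighted means were 91.6% (H3K27me3) and 91.7% (H3K4me1). Regions with a start had a share of 91.3% after knockdown and coverages of 95.4% and 96.7%, and those without one 73.7%, 91.3% and 85.7%. The causes were not tested, except that fewer libraries make a call easier.

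Leaving out 1 siCtrl or treated library in turn gave both marks at 77.8% to 88.0% of the regions with siKDM6B33, 61.0% to 75.9% with DMSO and 60.1% to 80.7% with GSK-J4, coverages after knockdown of 88.7% to 94.4% (H3K27me3) and 89.3% to 93.4% (H3K4me1), and 1259 and 1268 regions. With the replicate number as a replicate block, the paired differences were 2.78 and -3.19 points of coverage (exact sign-flip permutation p = 1.00 and 0.500) and -36.2 and -24.3 in summit (exact permutation p = 0.500 each, the smallest that 2 pairs allow). Replicate 1 minus 2 correlated between DMSO and GSK-J4 at 0.058 for H3K27me3 and 0.022 for H3K4me1 over the regions, so the libraries shared only a number. Depth limits the narrow peaks: the median summit of a list was 3 to 9 tags.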

Other observations

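The regions were unevenly spread over the chromosomes. Chromosome 19 held 103 (1.74 per Mb) and chromosome 16 held 90 (0.996 per Mb), against 23 on chromosome 6 (0.134 per Mb) and 1 on chromosome 18 (0.0128 per Mb). Per 1000 coding genes, chromosome 16 had 105 regions, chromosome 19 had 69.6, chromosome 6 had 21.9 and chromosome 18 had 3.76. The outer 5 Mb of the chromosomes, 7.64% of the autosome length, held 362 regions (34.6%), against 14.7% of the H3K4me1-only and 22.2% of the H3K27me3-only pieces. Of 1023 gaps between neighbouring regions 193 (18.9%) were under 10 kb. The copy number of the chromosomes in this line was not read here.

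Short motifs were counted on both strands in the central 1 kb. CAGCTG, an E-box of neural helix-loop-helix factors, was in 55.6% of the regions (Wilson 52.6 to 58.6%), 53.0% of H3K4me1-only and 45.3% of H3K27me3-only pieces, and 41.7% of windows 50 kb away. CACGTG, the E-box of MYC proteins, was in 21.2% (18.9 to 23.8%), 16.9%, 14.6% and 16.9% in the same order. Among those with a start within 1 kb it was in 20.9% of the regions (18.0 to 24.1%), 20.4% of H3K4me1-only and 14.3% of H3K27me3-only pieces. AGATAA, the letters read by GATA-family factors, was in 20.7% of the regions (18.3 to 23.2%), against 41.2%, 32.2% and 36.6%. The CTCF core consensus was in 24 regions, or 2.30% (1.55 to 3.39%), against 1.32%, 0.901% and 0.772%. These shares follow from letters in windows that differ in GC content, with medians of 64.2%, 50.9%, 51.0% and 48.2%, and the part of GC content was not tested.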
